A study of Mus musculus with 19 samples.

Results

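The glucocorticoid receptor gene Nr3c1, the mineralocorticoid receptor gene Nr3c2 and 8 genes known to be induced by glucocorticoids (Fkbp5, Tsc22d3, Sgk1, Zbtb16, Plin4, Mt1, Mt2 and Sult1a1) were followed in the hippocampal CA1 region of mice. These 10 genes were chosen by name from the 48709 genes in the count files and not by a cut on measured values. Earlier results of these data were known when they were chosen. All 10 were among the 19286 genes that passed the filter on low counts. CA1 tissue was microdissected from male C57B/6J wild-type mice, which were single housed, and sequenced as polyadenylated RNA. The 6 young mice (3 months) and the 6 old control mice (16.5 months) had received scrambled control oligonucleotides in lipid nanoparticles, injected on both sides into the dorsal hippocampus. The 7 old anti-miR-mix mice (16.5 months) had received inhibitors of miR-148a-3p, of miR-146a-5p and of miR-181a-5p by the same route. All groups therefore carried the surgery and the nanoparticles, and no uninjected mice were analysed here. Library titles in both control groups start with anti-miR-mix, and those of the treated group also name the mix, so grouping was taken from the sample descriptions. The hormone itself was not measured, and the time from the last handling of each mouse to tissue collection is not given in the sources used here. The paper describes water maze training after such injections, and whether the sequenced mice were trained is not stated.

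Glucocorticoids such as corticosterone are released from the adrenal gland under stress and with the time of day, enter brain cells and bind 2 nuclear receptors. The mineralocorticoid receptor binds the hormone tightly and is largely occupied at rest, whereas the glucocorticoid receptor fills as the hormone rises. Hippocampal pyramidal neurons are known for high levels of both. The bound receptors enter the nucleus and switch on genes that include the 8 followed here, some of them mainly in glia or vessels. In bulk tissue, fewer cells of a type and less RNA per cell cannot be told apart.

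The libraries held 26653511 to 38908947 reads assigned to genes. All 5 CA1 pyramidal markers were detected in every library, and their summed level ranged from 687 to 985 CPM, that is, reads scaled to a common library size. Old control replicates 5 and 6 were unusually alike. Their squared count difference per gene was 1.69 times the sampling noise, against 2.67 to 10.6 times for the other 50 pairs of libraries within a group, and they were also averaged as 1 library. The log2 table deposited beside the counts carries a correction by a number from 1 to 4 per library, whose source is not described. It is called processing group here and was added to the fit as an alternative. No old control library had the number 3. Per the labels each library is a separate sample, and p-values measure the spread between these samples.

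Sequences that bear on the members are shown first. The injected inhibitors are directed at 3 mature miRNAs, given here from RefSeq (GRCm38.p6) with the seed, bases 2 to 8, in capitals. No seed is shared.
mmu-miR-181a-5p: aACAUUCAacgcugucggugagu
mmu-miR-146a-5p: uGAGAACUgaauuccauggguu
mmu-miR-148a-3p: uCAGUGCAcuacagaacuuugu
The longest annotated 3′ untranslated region of each member (GENCODE M21) was searched for the complement of each seed, TGAATGT for miR-181a-5p, AGTTCTC for miR-146a-5p and TGCACTG for miR-148a-3p. Of the 15387 tested genes with such a region, 18.8%, 13.4% and 16.3% held at least 1 match. The median length of these regions was 1330 bases, and a longer region has more room for matches. Among the members, Nr3c1 held 3 matches to the miR-181a-5p seed in a region of 3937 bases, and Fkbp5 held 1 match to the miR-146a-5p seed, at base 1501 of 1953. The other 8 members held none in the regions searched, whose length ranged from 141 to 2845 bases. The Fkbp5 match (chr17:28399530-28399556, minus strand) is shown with the seed complement in capitals.
Fkbp5: tagtgtttgtAGTTCTCttcactagcc
A match of this kind is a description of the letters, not a measured site.

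The 250 bases before the annotated starts were available for 8 of the 10 members (15 starts, RefSeq, GRCm38.p6). The exact palindromic form of the glucocorticoid response element, AGAACA, 3 bases of any kind and the reverse complement TGTTCT, was present in 3 of all 32851 such windows (0.00913%). One of these 3 lies 189 to 175 bases before an annotated start of Sgk1, within the gene. The element is in capitals.
Sgk1 (chr10:21993640-21993889, plus strand): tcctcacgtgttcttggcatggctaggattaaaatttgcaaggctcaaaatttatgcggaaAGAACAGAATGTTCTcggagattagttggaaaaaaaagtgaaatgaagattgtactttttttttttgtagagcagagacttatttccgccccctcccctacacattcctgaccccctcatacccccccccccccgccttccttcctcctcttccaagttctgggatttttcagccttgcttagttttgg
The other 5 annotated starts of Sgk1 and the windows of the other 7 members did not hold it. Only this exact form was searched, so imperfect elements and elements outside the windows would be missed. The shorter element AGAACA, searched on both strands, was found in 16.1% of all windows and before 1 or more starts of Sgk1, Sult1a1 and Tsc22d3. Mt1 and Mt2, neighbours on chromosome 8, are also known for metal response elements. Their core, searched as TGCACNC and TGCGCNC on both strands, is in capitals, and the 2 forms were found in 10.4% and 12.5% of all windows.
Mt2 (chr8:94172368-94172617, plus strand): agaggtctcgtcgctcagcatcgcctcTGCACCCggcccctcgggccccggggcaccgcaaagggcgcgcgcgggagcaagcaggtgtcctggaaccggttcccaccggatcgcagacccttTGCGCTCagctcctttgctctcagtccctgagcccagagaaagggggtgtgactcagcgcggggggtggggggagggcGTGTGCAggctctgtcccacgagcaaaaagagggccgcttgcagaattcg
Mt1 (chr8:94178839-94179081, plus strand): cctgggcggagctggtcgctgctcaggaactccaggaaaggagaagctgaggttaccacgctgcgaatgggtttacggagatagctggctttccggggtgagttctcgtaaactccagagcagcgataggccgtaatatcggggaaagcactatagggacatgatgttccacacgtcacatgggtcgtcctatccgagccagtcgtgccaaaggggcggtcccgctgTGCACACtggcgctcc
In the windows searched, Mt2 held 3 such cores and Mt1 held 1, and the only other member with one was Nr3c2, with 1 core of the second form. Sequence after the annotated start or farther before it was not searched. The counts therefore depend on which start is annotated, and they do not show that Mt1 has fewer cores than Mt2. None of these matches says that a factor was bound.

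The members differed widely in level. Scaled by annotated exon length and library size (RPKM, mean ± SD over 19 libraries), Mt1 stood first at 117 ± 15.4 and Mt2 second at 35.9 ± 6.17. Both code for small proteins that bind zinc and copper. Nr3c2 followed at 24.2 ± 4.98, then Tsc22d3 at 18.8 ± 4.39, Sgk1 at 17.6 ± 7.27, Nr3c1 at 16.5 ± 0.752 and Zbtb16 at 14.8 ± 1.90. Fkbp5 (5.38 ± 0.649), Sult1a1 (4.41 ± 0.810) and Plin4 (1.74 ± 0.638) were lowest. Mt1 exceeded Mt2, Mt2 exceeded Nr3c2, Zbtb16 exceeded Fkbp5 and Sult1a1 exceeded Plin4 in 19 of 19 libraries. The order in the middle was not fixed. Nr3c2 exceeded Tsc22d3 in 13 libraries, Tsc22d3 exceeded Sgk1 in 15, and Sgk1 exceeded Nr3c1 in 6. Exon length here joins all annotated transcripts, so these levels are lower than for the transcript in use. The sparsest members were still counted well, with 156 to 327 reads per library for Sult1a1 and 163 to 739 for Plin4.

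**Figure D1:**
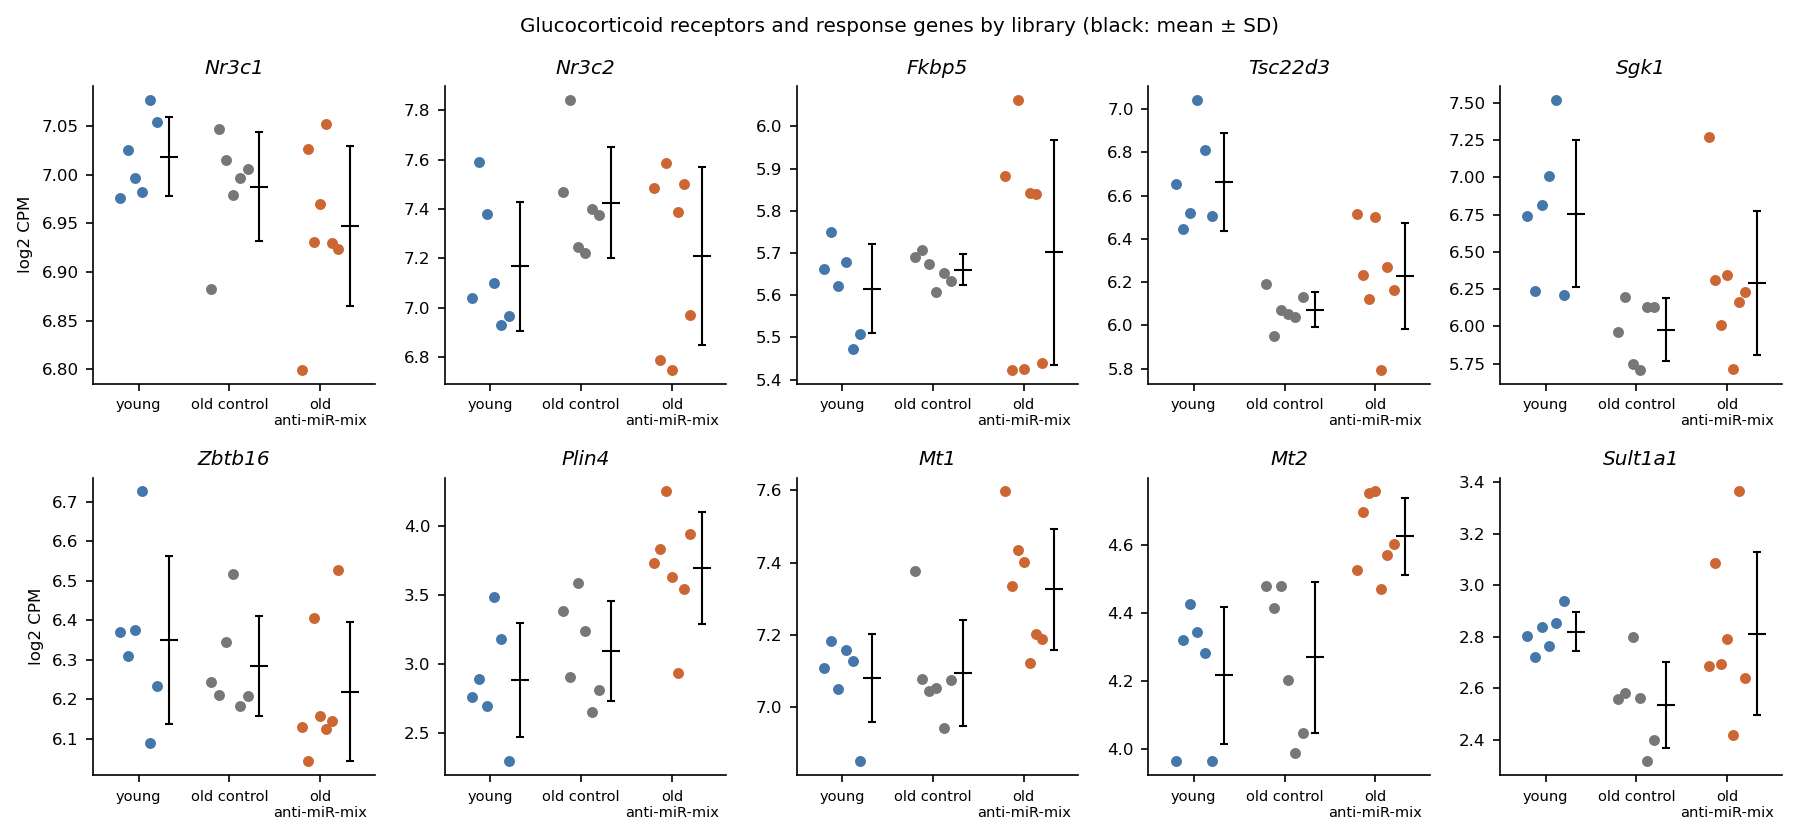
Log2 CPM of the 10 members (vertical axes, 1 panel per gene, scales differ) in each library, by group, with the group mean and SD in black. Tsc22d3 and Sgk1 do not overlap between young and old control, Mt2 does not overlap between old anti-miR-mix and young, and Nr3c1 spans only 6.80 to 7.08 over all 19 libraries.

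The receptors came first. Nr3c1, on the minus strand of chromosome 18, was the steadiest member. Its log2 CPM was 6.98 to 7.08 in young mice (median 7.01), 6.88 to 7.05 in old controls (median 7.00) and 6.80 to 7.05 in old anti-miR-mix mice (median 6.93). The 3 groups overlapped. The log2 fold change was -0.03 (95% interval -0.11 to 0.05, adjusted p = 0.729) for old control against young and -0.04 (-0.12 to 0.04, adjusted p = 0.775) for old anti-miR-mix against old control in edgeR's quasi-likelihood test. The value against young was -0.07 (-0.15 to 0.01, adjusted p = 0.310).

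Nr3c2 (chr8:76899442-77245012, plus strand) was more variable. It ranged from 6.93 to 7.59 in young mice (median 7.07), from 7.22 to 7.84 in old controls (median 7.39) and from 6.75 to 7.59 in old anti-miR-mix mice (median 7.39). All groups overlapped, and the log2 fold changes of 0.25 (95% interval -0.06 to 0.56, adjusted p = 0.387) with age and -0.19 (-0.49 to 0.11, adjusted p = 0.689) with the anti-miR-mix did not pass. The old anti-miR-mix libraries lay in 2 clumps, with replicates 2, 4 and 7 at 6.79, 6.75 and 6.97 and the other 4 between 7.39 and 7.59. As log2 CPM, not corrected for gene length, Nr3c2 minus Nr3c1 was -0.15 to 0.56 in young, 0.23 to 0.80 in old control and -0.24 to 0.69 in old anti-miR-mix mice. It therefore varied mostly with Nr3c2 itself. Nr3c2 overlaps Gm10649 on the opposite strand, and reads there could be shared if counting did not use strand.

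With age, 2 of the 10 members passed the threshold and both fell, Tsc22d3 and Sgk1. Among all 19286 genes, 2.67% passed in this comparison, 255 of them higher and 259 lower. For both of them the groups did not overlap, as for 2.54% of all genes. Tsc22d3 (chrX:140539528-140600659, minus strand) codes for GILZ, a leucine zipper protein known to carry part of the anti-inflammatory action of glucocorticoids. Its log2 CPM was 6.45 to 7.05 in young mice (median 6.59) and 5.95 to 6.19 in old controls (median 6.06). Every young library lay above every old control library. The log2 fold change was -0.61 (SE 0.10, adjusted p = 0.0030, or 0.657-fold), and it passed under all 28 alternatives tried, with values from -0.65 to -0.52.

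Sgk1 (chr10:21882184-21999903, plus strand) codes for a serum and glucocorticoid regulated kinase that acts on ion channels and transporters. It was at 6.21 to 7.52 in young mice (median 6.78) and at 5.71 to 6.20 in old controls (median 6.05). The groups nearly met, since young replicates 2 and 6 lay at 6.24 and 6.21. The log2 fold change was -0.84 (SE 0.22, adjusted p = 0.0455, or 0.560-fold). This call was fragile. It passed under 13 of 28 alternatives and was lost with the 2 similar old control libraries as 1 (adjusted p = 0.0728), with the linear processing group term (0.0519), in the replicate block (0.0666) and without 12 of the 19 libraries in turn. These were young replicates 1, 3, 4 and 5, each of the old controls, and old anti-miR-mix replicates 2 and 7, and the smallest change was -0.65 without young replicate 5 (adjusted p = 0.106).

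The summed level of oligodendrocyte markers was 7088 to 11237 CPM in young mice and 6274 to 7448 in old controls, and 4 of 6 passed as lower. Within groups, Tsc22d3 followed this sum over the 19 libraries with r = 0.62 (permutation p = 0.0204, adjusted p = 0.242 over 130 relations, rho = 0.51, permutation p = 0.0510, and r = 0.61 without the 2 farthest libraries). For Sgk1 r was 0.50 (permutation p = 0.0688, adjusted p = 0.398, rho = 0.49, permutation p = 0.0511, and r = 0.52 without the 2 farthest libraries). With processing group removed as well, r was 0.78 for Tsc22d3 and 0.83 for Sgk1. The part of oligodendrocyte RNA in the fall of either gene was not tested.

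The remaining 8 members did not pass with age. Sult1a1, a sulfotransferase of phenols, came closest (-0.28, SE 0.12, adjusted p = 0.221), from 2.72 to 2.94 in young mice and 2.32 to 2.80 in old controls. Plin4 was at 0.20 (SE 0.21, adjusted p = 0.663), Mt1 at 0.02 (SE 0.08, adjusted p = 0.933) and Mt2 at 0.05 (SE 0.09, adjusted p = 0.823). The median log2 fold change of the 10 members was -0.01, and that of all genes 0.01.

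**Figure D2:**
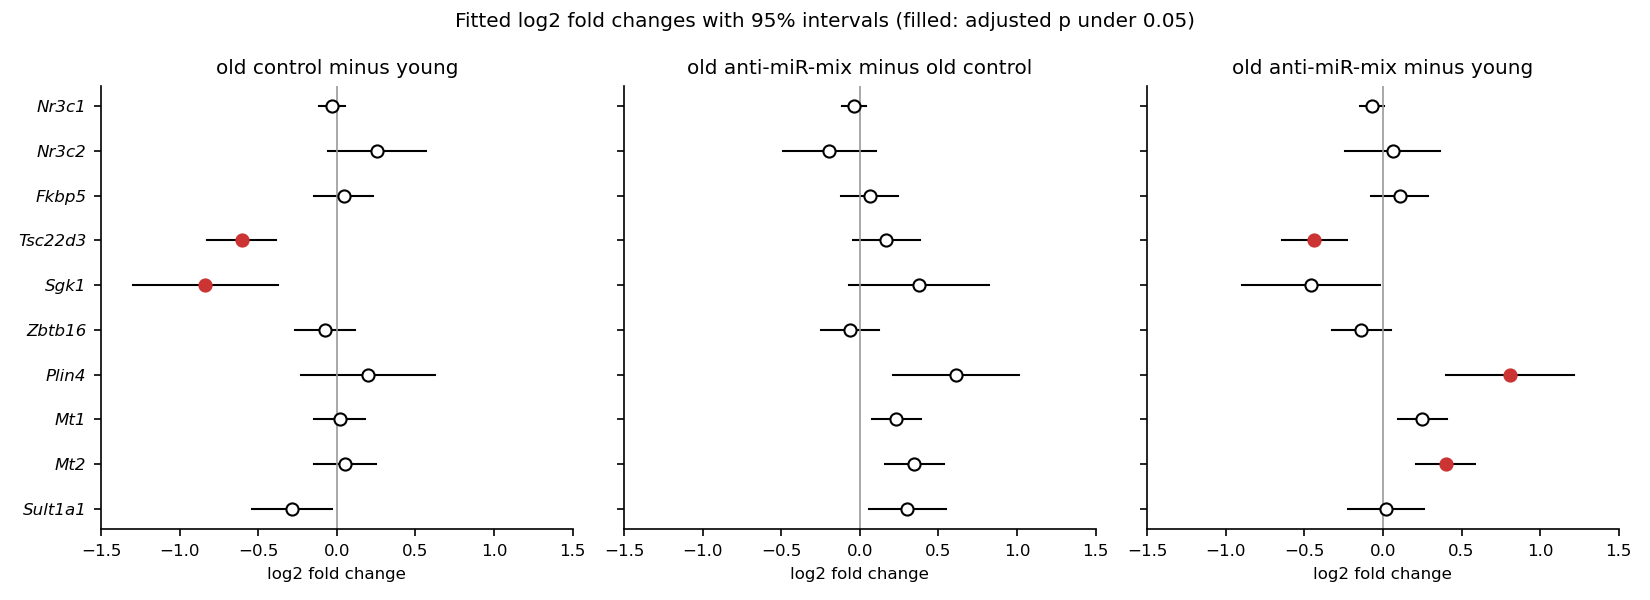
Fitted log2 fold changes (horizontal axes) of the 10 members with 95% intervals in the 3 comparisons, filled where the adjusted p was under 0.05. Tsc22d3 and Sgk1 are filled on the left, none in the middle, and Tsc22d3, Plin4 and Mt2 on the right.

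With the anti-miR-mix, none of the 10 members passed in edgeR when old mice were compared, and 4 had an unadjusted p under 0.05. Of all genes, 0.669% passed, 129 higher and 0 lower, and 2026 had an unadjusted p under 0.05. No member had groups that did not overlap, against 0.498% of all genes. The 4 members with the smallest p were Mt2, Plin4, Mt1 and Sult1a1, all with higher values after treatment. DESeq2 and limma each called 1 member, Mt2. The median log2 fold change of the 8 response genes was 0.27, with 7 of 8 above 0, and that of all genes was 0.00035. This shared direction was not tested, and gene lists given further below were also uneven in this comparison, some upward and some downward. The same old control libraries enter this comparison and the one with age, so their directions are not independent.

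Mt2 (chr8:94172664-94173568, plus strand) was at 3.99 to 4.48 in old controls (median 4.31) and at 4.47 to 4.76 in old anti-miR-mix mice (median 4.60). Only the lowest treated library, replicate 5, fell within the range of the controls. In edgeR it differed by 0.35 (SE 0.09) with an adjusted p of 0.0902. The difference passed in DESeq2 (adjusted p = 0.0227), in limma on the deposited values (0.0357) and in the replicate block (0.0351), and it was 0.28 (adjusted p = 0.461) with processing group as a factor. Mt1 (chr8:94179082-94180327, plus strand) was at 6.94 to 7.38 in old controls (median 7.06) and 7.12 to 7.60 in treated mice (median 7.34). The difference was 0.23 on the log2 scale (SE 0.08, adjusted p = 0.213), with an adjusted p of 0.0469 in the replicate block. One control library, replicate 1 at 7.38, lay above 4 of the 7 treated ones. Mt1 and Mt2 are close paralogs whose reads could be exchanged, and Gm45774 overlaps Mt2 on the opposite strand.

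Plin4 (chr17:56100591-56109803, minus strand) codes for a protein of the lipid droplet coat. It was at 2.66 to 3.59 in old controls (median 3.07) and 2.94 to 4.25 in treated mice (median 3.73), and differed by 0.61 on the log2 scale (SE 0.19, adjusted p = 0.198). Of the treated libraries, 5 of 7 lay above all controls. Sult1a1 (chr7:126672865-126676432, minus strand) was at 2.32 to 2.80 in controls and 2.42 to 3.37 in treated mice, with 0.30 (SE 0.12, adjusted p = 0.341). Both genes overlap the end of a neighbour on the opposite strand, Hdgfl2 for Plin4 and Sgf29 for Sult1a1. Tsc22d3 and Sgk1 did not differ detectably between the old groups, with log2 fold changes of 0.17 (95% interval -0.04 to 0.38) and 0.38 (-0.07 to 0.82). Without old anti-miR-mix replicate 1 the Sgk1 value was 0.15.

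When old anti-miR-mix mice were set against young mice, 3 of the 10 members passed, where 6.20% of all genes did (881 higher and 315 lower). Tsc22d3 was lower, at 5.79 to 6.52 in treated old mice (median 6.23) against 6.45 to 7.05 in young mice (difference -0.44, SE 0.10, adjusted p = 0.0094). Replicates 1 and 4 of the treated group reached the young range. Mt2 was higher, and all 7 treated libraries lay above the young range of 3.96 to 4.43 (0.40, SE 0.09, adjusted p = 0.0087). It was the 1 member without overlap, against 2.42% of all genes. Plin4 was higher as well (0.81, SE 0.20, adjusted p = 0.0138, or 1.75-fold), from 2.30 to 3.48 in young mice. These 3 passed under all 28 alternatives. Mt1 missed the threshold narrowly (0.25, SE 0.08, adjusted p = 0.0502) and passed under 10 of 28 alternatives. Sgk1, at -0.46 (SE 0.21, adjusted p = 0.229), passed only without old anti-miR-mix replicate 1 (-0.69, adjusted p = 0.0171). The other members did not pass, with Nr3c2 at 0.06 (SE 0.14), Fkbp5 at 0.11 (SE 0.09), Zbtb16 at -0.14 (SE 0.09) and Sult1a1 at 0.02 (SE 0.12).

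Glial marker levels are given beside the metallothioneins and Plin4. The summed astrocyte level was 1971 to 2308 CPM in old controls, 1961 to 2663 in old anti-miR-mix mice and 1686 to 2114 in young mice. Of the 6 astrocyte markers, 0 passed between the old groups and 2 were higher in old anti-miR-mix than in young mice. Within groups over the 19 libraries, Mt2 followed the astrocyte sum with r = 0.63 (permutation p = 0.0027, adjusted p = 0.0581, rho = 0.60, permutation p = 0.0051, and r = 0.61 without the 2 farthest) and Plin4 the oligodendrocyte sum with r = 0.67 (permutation p = 0.0036, adjusted p = 0.0674, rho = 0.63, permutation p = 0.0064, and r = 0.63 without the 2 farthest). For Mt1 r was -0.11 with the astrocyte sum, -0.08 with the microglial sum and 0.46 with the oligodendrocyte sum (adjusted permutation p = 0.956, 0.956 and 0.398, rho = 0.05, 0.05 and 0.47). None of these relations passed after adjustment. The microglial sum was 331 to 376 in old controls and 358 to 478 in old anti-miR-mix mice, with 2 of 5 markers higher. The oligodendrocyte sum was 6274 to 7448 in old controls (median 6839) and 6375 to 9411 in old anti-miR-mix mice (median 8310). Between these groups 0 of its 6 markers passed. The part of these cells in the values of Mt2, Mt1 and Plin4 was not tested.

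Fkbp5 and Zbtb16 did not pass in any of the 3 comparisons. Fkbp5 (chr17:28399094-28517527, minus strand) codes for a co-chaperone that lowers the hormone affinity of the glucocorticoid receptor and is itself induced by it, which makes it a widely used readout of the hormone. It was at 5.47 to 5.75 in young mice (median 5.64), at 5.61 to 5.71 in old controls (median 5.66) and at 5.42 to 6.06 in old anti-miR-mix mice (median 5.84). The SD was 0.04 in old controls and 0.27 in the treated group. As with Nr3c2, the treated libraries lay in 2 clumps, replicates 2, 4 and 7 at 5.42 to 5.44 and the other 4 at 5.84 to 6.06. The log2 fold changes were 0.04 (95% interval -0.15 to 0.23) with age and 0.06 (-0.12 to 0.25) with the anti-miR-mix. Zbtb16 (chr9:48654297-48836222, minus strand) codes for the transcriptional repressor PLZF. It was at 6.09 to 6.73 in young, 6.18 to 6.52 in old control and 6.04 to 6.53 in treated mice, with log2 fold changes of -0.08 (-0.27 to 0.12) and -0.06 (-0.25 to 0.12).

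**Figure D3:**
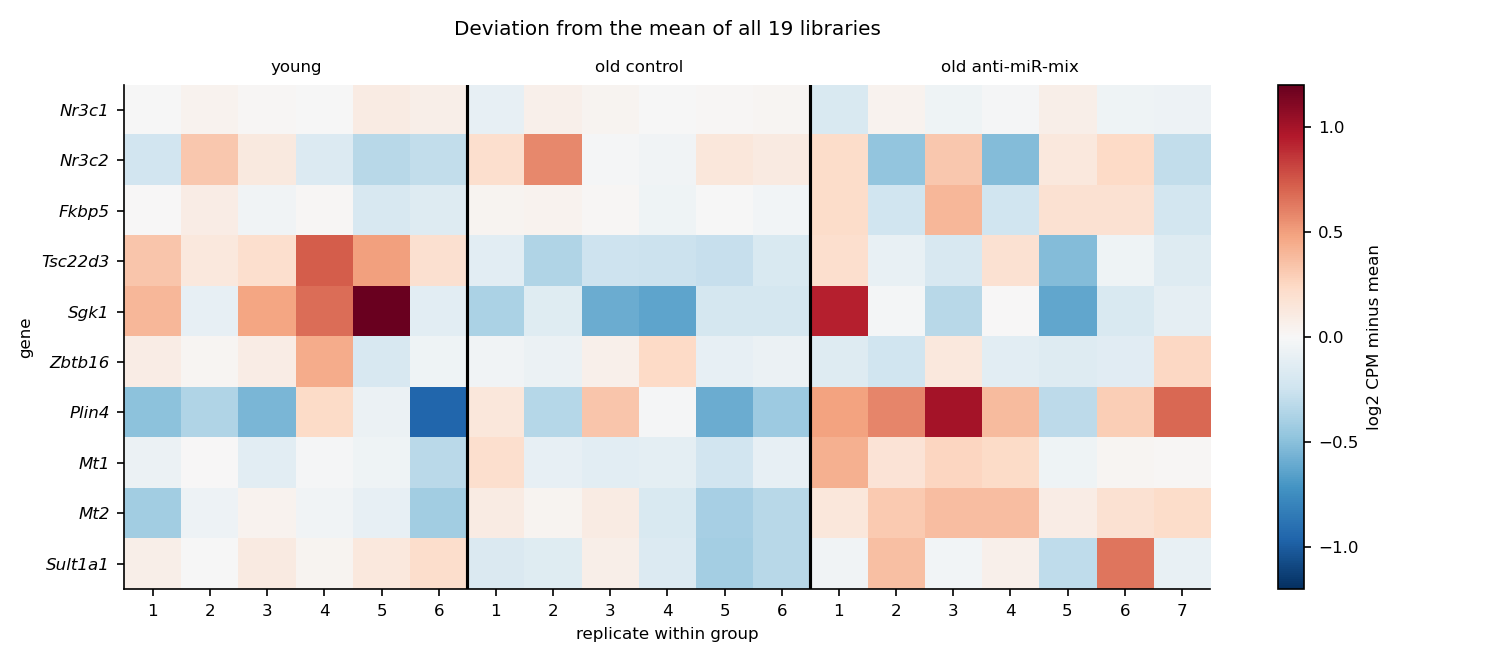
Log2 CPM of each member (rows) minus its mean over the 19 libraries, in each library (columns, by replicate number within group). Tsc22d3 and Sgk1 are red in most young libraries and blue in all old controls, Plin4, Mt1 and Mt2 are red in most old anti-miR-mix libraries, and no library is uniformly red or blue over the 10 rows.

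The response was also read library by library. The mean deviation of the 8 response genes from their average over all libraries was -0.20 to 0.26 in young mice (median 0.01), -0.28 to -0.03 in old controls (median -0.14) and -0.21 to 0.28 in old anti-miR-mix mice (median 0.11). All 6 old controls were below 0. Tsc22d3 and Sgk1, called lower in old controls, are part of this mean, so it restates those calls in part. The deviations were not scaled, so variable genes weigh more. Over all libraries the SD was 0.52 for Plin4 and 0.51 for Sgk1, against 0.17 for Fkbp5. In the treated group 6 of 7 libraries were above 0, and replicate 5 of that group, at -0.21, had only 2 of 8 response genes above average. Old control replicates 5 and 6 had 0 of 8 above average. In no library were all 8 above average, and the highest number was 6, in young replicate 4 and old anti-miR-mix replicates 1 and 4. High values fell on different genes in different mice. Young replicate 5 had the highest Sgk1 of all (7.52) beside the lowest Fkbp5 of the young mice (5.47), and old anti-miR-mix replicate 3 had the highest Fkbp5 (6.06) and Plin4 (4.25) beside an Sgk1 of 6.01.

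Whether the 8 response genes varied together from mouse to mouse was tested after removing the group means, with library labels permuted 100000 times within groups. None of the 28 pairs passed after adjustment, by Pearson or by Spearman, while 8 had an unadjusted Pearson p and 6 an unadjusted Spearman p under 0.05. In 21 of 28 pairs r was positive. Sgk1 and Tsc22d3 had r = 0.70 (permutation p = 0.0073, adjusted p = 0.103, rho = 0.65 with permutation p = 0.0070 and adjusted p = 0.189), and 0.69 without the 2 libraries farthest from the median of Tsc22d3. The relation was seen in young (r = 0.71) and treated mice (0.81) but not in old controls (-0.23), a difference that was not tested. Plin4 and Mt2 had r = 0.65 (permutation p = 0.0049, adjusted p = 0.103, rho = 0.55 with permutation p = 0.0293 and adjusted p = 0.205), and 0.56 without the 2 farthest libraries.

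The pairs changed when processing group was removed along with group. Then 5 pairs had an adjusted permutation p under 0.05, each 0.0469 by Pearson and 0.0462 by Spearman: Tsc22d3 with Sgk1 (r = 0.69), with Plin4 (0.69) and with Mt1 (0.64), Plin4 with Mt1 (0.67), and Mt2 with Sult1a1 (0.58). Libraries were still permuted within groups alone, without regard to processing group, so these p may be too small. With values this near the threshold, whether the 5 pairs pass cannot be decided here. Without the 2 farthest libraries r was 0.41 to 0.62 in these 5, the lowest for Tsc22d3 with Plin4. Fkbp5 was in none of them. Its r with Tsc22d3 lay between -0.35 and -0.06 when each library was left out in turn.

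**Figure D4:**
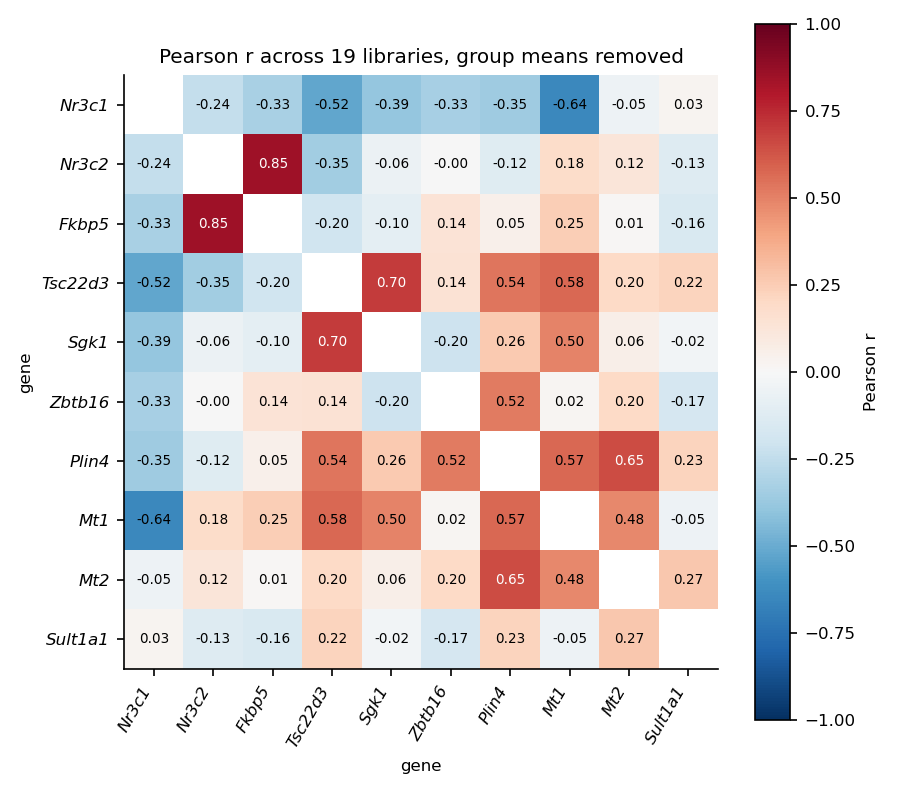
Pearson r between members (both axes) across 19 libraries after the group means were removed. The strongest cell is Fkbp5 with Nr3c2 at 0.85, while Sgk1, Tsc22d3, Plin4, Mt1 and Mt2 are positive with one another (0.06 to 0.70) and Nr3c1 is negative with most response genes.

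Fkbp5 followed Nr3c2 instead. With the receptors included, a choice made after the values were seen, 1 of 45 pairs passed, Nr3c2 with Fkbp5 (r = 0.85, permutation p = 1e-05, the smallest these permutations can give, adjusted p = 0.00045, and rho = 0.84, permutation p = 0.00038, adjusted p = 0.0171). The value was 0.90 without the 2 libraries farthest from the median of Nr3c2, 0.83 with processing group removed too, and 0.81 to 0.89 when each library was left out. Since the treated group lay in 2 clumps, it was also computed over the 12 young and old control libraries alone, where r was 0.69 (permutation p = 0.0214, and rho = 0.65, permutation p = 0.0425), falling to 0.52 without the 2 farthest. The pair did not stand out among all genes. Of 12779 other genes with a mean of at least 100 reads, Fkbp5 ranked 395 by r with Nr3c2 over the 19 libraries. Nr3c2 ranked 128 by r with Fkbp5, so many genes followed each of the 2 more closely. Nr3c1 and Fkbp5 had r = -0.33 (permutation p = 0.333, adjusted p = 0.833, rho = -0.36). The strongest relation of Nr3c1 was with Mt1 (r = -0.64, permutation p = 0.0088, adjusted p = 0.0996, rho = -0.44). Without the 2 farthest libraries it was -0.27. With Tsc22d3 r was -0.52 (permutation p = 0.0454, adjusted p = 0.186, rho = -0.34).

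CA1 and CA2 neuron markers moved with this pair. The summed CA1 pyramidal level was 721, 687 and 788 CPM in old anti-miR-mix replicates 2, 4 and 7, the clump with low Nr3c2 and Fkbp5, and 837 to 956 in the other 4. Over the 19 libraries Nr3c2 followed the CA1 sum with r = 0.87 (permutation p = 1e-05, adjusted p = 0.0013) and the CA2 sum with r = 0.90 (permutation p = 2e-05, adjusted p = 0.0013), and Fkbp5 followed the CA1 sum with r = 0.79 (permutation p = 0.00025, adjusted p = 0.0108, over 130 relations). Without the 2 farthest libraries these r were 0.82, 0.93 and 0.68, and rho was 0.88, 0.90 and 0.74, with adjusted permutation p of 0.0032, 0.0013 and 0.0956. No other relation between a member and a marker list passed by Pearson, Fkbp5 with the CA2 sum being closest (r = 0.84, permutation p = 0.0016, adjusted p = 0.0507). The part of neuron content in the Nr3c2 and Fkbp5 values was not tested.

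**Figure D5:**
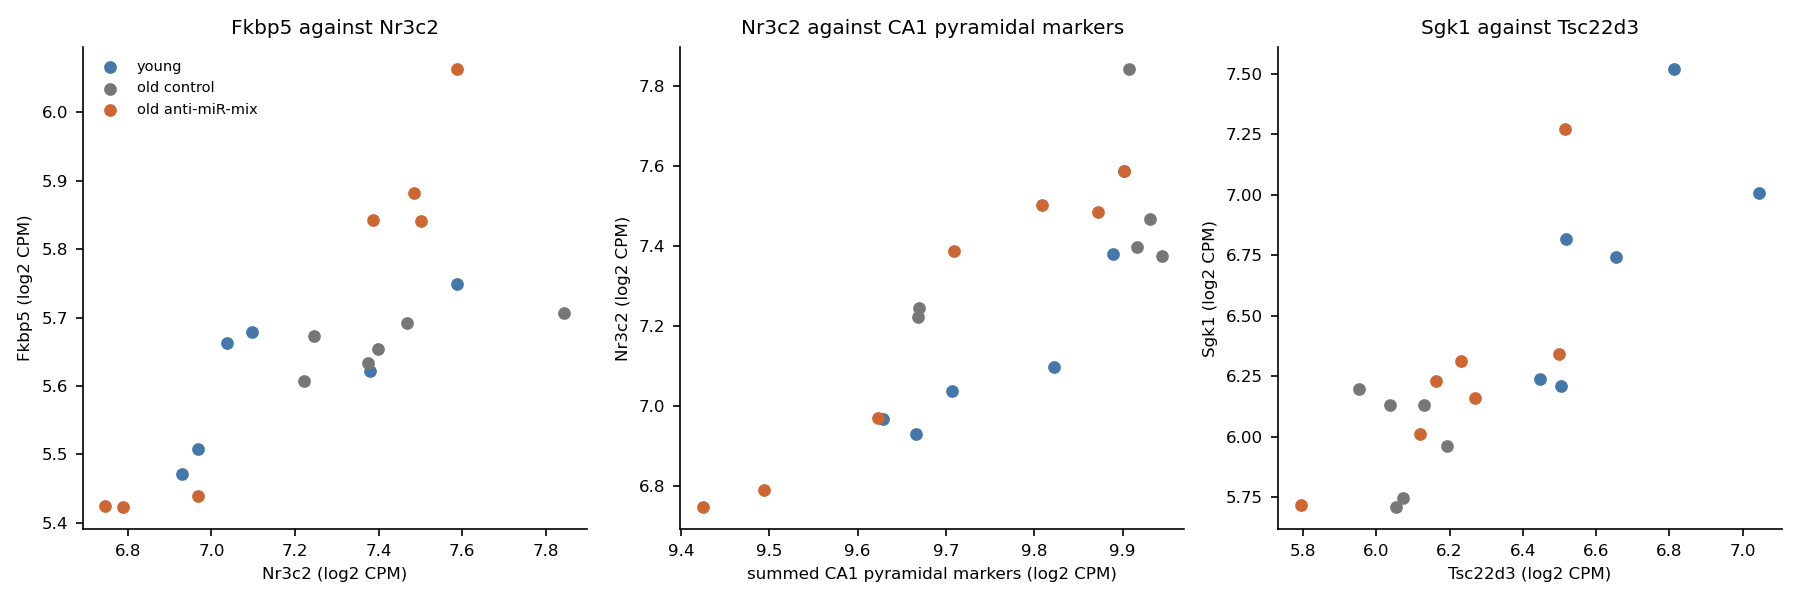
Each point is 1 library, coloured by group, on log2 CPM axes. Fkbp5 rises with Nr3c2 and Nr3c2 with the summed CA1 pyramidal markers, with 3 old anti-miR-mix libraries at the lower left of both panels, and Sgk1 rises with Tsc22d3 among young and treated mice.

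The genes whose library-to-library pattern was most like a member's were taken from the 12779 other genes with a mean of at least 100 reads, over 19 libraries with group means removed. For Nr3c2 these were Ppm1e, Gria1, Shisa6, Ppp3r1 and Arl15, with r of 0.98 each. Gria1 codes for a subunit of AMPA-type glutamate receptors and Ppp3r1 for the regulatory subunit of calcineurin. For Nr3c1 they were Hif1a (0.90), Zfp605 (0.89), Sp4 (0.89), Ppat (0.88) and March7 (0.87), and Hif1a codes for the oxygen-regulated transcription factor. For the mean of the 8 response genes they were Cyth1 (0.90), Cyp4f16 (0.85), Zfp276 (0.84), Tmem134 (0.83) and Dpm3 (0.81). These are the highest of many values and are given without a test.

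The genes around the receptors were read from lists. Of the 12 chaperones and co-chaperones that fold the receptors, all tested, 0 passed with age (2 with an unadjusted p under 0.05, 1 called by DESeq2, 0 by limma) and 0 with the anti-miR-mix in edgeR (1 unadjusted, 0 in DESeq2 and limma). The 2 that passed were lower in old anti-miR-mix than in young mice, Hsp90aa1 (-0.11, SE 0.03, adjusted p = 0.0386) and Hspa4 (-0.11, SE 0.03, adjusted p = 0.0330), the first an HSP90 form that holds the receptors ready for hormone. Hsp90ab1, by far the most counted of the list, was at -0.02, -0.06 and -0.08 in the 3 comparisons.

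Hormone metabolism and export were represented by 5 tested genes of 6, Hsd11b2 being too low. Hsd11b1, which regenerates active corticosterone inside cells, was at -0.22 (SE 0.07, adjusted p = 0.0935) with age, at -0.06 (adjusted p = 0.826) with the anti-miR-mix and fell by 0.28 (SE 0.07, adjusted p = 0.0135) in old anti-miR-mix against young mice. Abcb1b, one of 2 mouse genes for the P-glycoprotein pump that exports corticosteroids, was higher in that last comparison (0.43, SE 0.09, adjusted p = 0.0037), whereas Abcb1a, the other, was at 0.0027. With age and with the anti-miR-mix, 0 of the 5 passed in edgeR (3 and 1 unadjusted, 1 and 0 in DESeq2, 0 and 0 in limma). None of the 11 receptor coregulators passed in any comparison in edgeR (1, 1 and 2 with an unadjusted p under 0.05, and 0 in DESeq2 and limma), among them Ncor1 (0.03, -0.07 and -0.04).

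Among 30 other glucocorticoid-induced genes, 2 passed with age in edgeR, Mertk (0.20, SE 0.05, adjusted p = 0.0434), a receptor for engulfment of dying cells, and Mfsd2a (-0.40, SE 0.09, adjusted p = 0.0188), a lipid transporter of brain endothelium. With age 9 had an unadjusted p under 0.05, and DESeq2 called 5 and limma 2. Fitted values with age were above 0 in 12 of 30, with a median of -0.06. None passed with the anti-miR-mix (7 unadjusted, 1 in DESeq2, 0 in limma). In that comparison 27 of 30 had fitted values above 0 with a median of 0.11, where the median of all genes was 0.00035. Other lists were uneven there too. Fitted values were above 0 in 1 of 11 coregulators (median -0.06), 2 of 12 chaperones (median -0.03) and 8 of 10 immediate early genes (median 0.07). These directions were not tested. Against young mice, Mertk (0.32, SE 0.05, adjusted p = 0.00044) and Xdh (0.64, SE 0.11, adjusted p = 0.0011), the gene of xanthine dehydrogenase, were higher and Klf9 (-0.16, SE 0.05, adjusted p = 0.0453), a transcription factor, was lower in old anti-miR-mix mice. There 15 of 30 were above 0. Between the old groups the 2 most counted genes of this list, Klf9 and Fam107a, were at 0.02 (SE 0.05) and 0.09 (SE 0.06). The 3 comparisons share samples in pairs.

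Of 4 tested genes of the corticotropin-releasing hormone system, the receptor gene Crhr1 fell with age (-0.44, SE 0.10, adjusted p = 0.0252) and none passed in the other 2 comparisons in edgeR (0 and 2 unadjusted, 0 and 1 in DESeq2, 0 and 0 in limma). Crhbp, whose product binds the hormone, was at 0.35 with age (SE 0.10, adjusted p = 0.0716) and at -0.11 with the anti-miR-mix. Of 5 other genes of metal handling, Slc30a1, a zinc exporter known to be induced with the metallothioneins, rose with age (0.22, SE 0.04, adjusted p = 0.0039) and was at -0.11 (adjusted p = 0.234) with the anti-miR-mix. None of the 5 passed in the other 2 comparisons in edgeR (1 and 3 unadjusted, 0 and 1 in DESeq2, 0 in limma). Mt3, the brain metallothionein, was at 0.10, 0.03 and 0.12 and Slc39a10, a zinc importer, at -0.07, -0.08 and -0.15, and neither passed. None of 10 immediate early genes, which rise within minutes of neuronal activity, passed in any comparison, and none had an unadjusted p under 0.05 or a call in DESeq2 or limma. Egr1 was at -0.40 (SE 0.20, adjusted p = 0.306) with age and 0.07 (SE 0.20) with the anti-miR-mix. Arc was at 0.03 (SE 0.35) and -0.0020 (SE 0.34).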

How the data were processed

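CA1 RNA of 19 libraries (6 young, 6 old control, 7 old anti-miR-mix) was analysed. The deposited counts are raw reads per Ensembl gene, made by the authors with STAR 2.5.2b and featureCounts (Subread 1.5.1) on mm10. Strand options are not given in the sources used here. The authors also deposited log2 values for 18761 genes, which equal log2(CPM + 1) less a slope per gene times the processing group number, to within 3.4e-08. All 19 columns of per-sample values were assigned.

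The 19286 genes that reached 5 reads in 50% or more of the libraries were normalised by TMM and fitted in edgeR 4.0.16 (glmQLFit, glmQLFTest, 3 groups, no covariate) with Benjamini-Hochberg adjustment over all of them at 0.05. Printed fold changes and adjusted p-values come from this fit unless another tool is named. Log2 CPM used a prior count of 2. Alternatives were DESeq2 1.42.0, limma 3.58.1 on the deposited log2 values, DESeq2 size factors in edgeR, no filter, processing group as factor or linear term, the replicate block, the 2 similar libraries as 1, only the 2 groups compared, and each library left out. Correlations used Python 3, with two-sided permutation within groups. The fits and the pair test were tested on simulated data. Gene positions are GENCODE M21 (GRCm38), matched for 48349 of 48709 identifiers. All 10 members are named in each comparison, with, from each list, the genes past the threshold or else among its 2 most counted, and the 5 genes most like Nr3c1, Nr3c2 and the response mean. The members and lists were chosen with earlier results of these data known, and no list was tested as a set. One gene that this rule names is not reported here. Depth, 26653511 to 38908947 reads per library, limits precision for Plin4 and Sult1a1 most.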

Additional observations from a re-analysis of the deposited data

Results flagged for a closer look

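In 39 sets of values (the 10 members, the mean of the 8 response genes, and the differences Nr3c2 minus Nr3c1 and Mt2 minus Mt1, in 3 groups each), 4 held a library that stood apart by Dixon's 95% limit, where chance gives about 1 in 20. Sgk1 in old anti-miR-mix replicate 1 was at 7.27, against 5.72 to 6.34 in the other 6 libraries of that group. The same library had a log2 difference Mt2 minus Mt1 of -3.07, against -2.68 to -2.59 in the others. Mt1 in old control replicate 1 was at 7.38, against 6.94 to 7.08. The mean deviation of the response genes in old anti-miR-mix replicate 5 was -0.21, against 0.07 to 0.28 in the other 6.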

How the results depend on the processing

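Over the 10 members in 3 comparisons, 800 of 840 recomputed values kept their direction and their side of the threshold, 15 lost a call, 15 gained one and 10 changed sign, the last only in values close to 0 that had no call. Mt1 with age, 0.02 as reported, was -0.0055 with processing group as a factor, -0.019 with its linear term and -0.027 in limma, and -0.044 to 0.048 with each library left out. Leaving out libraries also carried across 0 Zbtb16 with age (-0.13 to 0.010), Fkbp5 with the anti-miR-mix (-0.0026 to 0.11), and, against young, Nr3c2 (-0.0050 to 0.16) and Sult1a1 (-0.092 to 0.084). Members called with age went from 2 to 1, by the loss of Sgk1, with the linear processing group term, the replicate block and the similar libraries as 1, and were 1 to 2 with each library left out. With the anti-miR-mix they went from 0 to 2 in the replicate block (Mt1 and Mt2) and to 1 in DESeq2 and in limma (Mt2). Genes called with age (514) were 323 with no filter, 914 in DESeq2, 302 with the similar libraries as 1, 772 with only the 2 groups and 214 to 746 with each library left out, the lowest without young replicate 4. Their split, 255 higher and 259 lower, became 247 and 124 with processing group as a factor. Genes called with the anti-miR-mix (129) were 9 with processing group as a factor, 249 in the replicate block, 267 in DESeq2, 36 with the similar libraries as 1, 55 with only the 2 groups and 24 to 247 with each library left out. They fell to between 24 and 42 without old control replicate 1, 2, 5 or 6 or old anti-miR-mix replicate 2, 3, 4 or 5, and were 247 and 232 without old anti-miR-mix replicates 1 and 6. The causes were not tested. Response gene pairs past the threshold went from 0 to 5 with processing group removed and were 0 to 1 with each library left out (1 without young replicate 3). The permutation behind the 5 did not regard processing group, so their p may be too small. Replicate numbers only name samples here: same-numbered libraries of different groups had a mean correlation of deviations of 0.05 (-0.17 to 0.21 over 18 pairs), so the replicate block pairs nothing the labels describe, and its other calls did not change in number by over 1.5 times. The pair of Nr3c2 and Fkbp5 and the marker relations were added after seeing the data.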

Other observations

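The library-to-library patterns of single response genes had further close matches, looked up after the values were seen and given without a test. Over the 19 libraries with group means removed, the 5 genes most like Mt2 included the astrocyte genes S100b (r = 0.76), Gfap (0.76) and Clu (0.75), and the first was Aldh1a1 (0.83). The brain metallothionein gene Mt3 was second for Mt1 (0.88). Arl4d, which codes for a small GTP-binding protein, was first for both Tsc22d3 (0.89) and Sgk1 (0.88), and Arrdc2 was also among the 5 nearest to each (0.85 and 0.85).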
